A study of Drosophila melanogaster with 78 samples.

Results

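The cytosolic ribosomal protein genes of Drosophila melanogaster were examined in total RNA from 4 tissues of ageing female flies. Members were all genes of the transcript table whose symbol begins with RpL or RpS followed by a digit or a capital P, which gave 92 of 17393 genes and 229 of 33568 transcripts. The symbols put 38 of them in the small subunit, 51 in the large subunit and 3 (RpLP0, RpLP1 and RpLP2) in the stalk of the large subunit. By chromosome, 19 lay on 2L, 21 on 2R, 14 on 3L, 23 on 3R, 1 on 4 and 14 on X, and each was found in the annotation of BDGP6 at the position given in the table.

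Brain, thorax without gut, gut with Malpighian tubules but without crop, and fat body were dissected by hand from wDah and dilp 2-3,5 females at days 10, 30 and 50. The fat body samples were abdomens from which gut and ovaries had been taken out. wDah (white Dahomey) is an outbred wild-type strain that carries Wolbachia, and dilp 2-3,5 mutants lack the insulin-like peptide genes dilp2, dilp3 and dilp5 in the same background, so both genotypes share that background, the endosymbiont and the sugar-yeast-agar diet. The 72 total RNA libraries, 3 biological replicates for each of the 24 groups, were depleted of ribosomal RNA. Day 10 samples were generated independently of the others, so that age and batch cannot be told apart wherever day 10 is compared with a later day.

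Ribosomal proteins assemble with ribosomal RNA into the small subunit, which decodes the mRNA, and the large subunit, which joins amino acids. Their mRNAs are among the most abundant of any cell. In flies many of these genes are Minute loci, at which the loss of a single copy slows development and gives short bristles. Insulin signaling through Tor and S6k promotes ribosome production, which is why lowered insulin signaling makes this gene family of interest.

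Several ribosomal proteins of the fly are encoded by a pair of genes, and the bases around the start site are shown for some of these pairs because ribosomal protein promoters commonly carry a run of pyrimidines at the start. In each sequence the first 10 bases lie before the annotated start of the transcript with the highest mean level, and the next 20 bases begin at that start. Capitals mark CTTT where it began within 5 bases of the start, on the transcribed strand. The genome sequence is that of Release 6 (BDGP6).
RpS5a, chrX:17148245-17148274, minus strand: tgccgtaacatgttCTTTttcaggcgtttg
RpS5b, chr3R:14901544-14901573, minus strand: cttttaccgtttCTTTttcatcctctttct
RpS19a, chrX:16637884-16637913, plus strand: ttcacgcgccttgttCTTTtttccggttga
RpS19b, chr3R:23933511-23933540, minus strand: ccaatcgtccattttgactaaagtcagcaa
RpL34b, chr3R:9401183-9401212, minus strand: agtttcgtctCTTTgaggtatgcacgtgtt
RpL34a, chr3R:26059248-26059277, minus strand: ccagctctagcttctcttcttccttctttt
RpL24, chr2L:13395073-13395102, minus strand: cacttccgttttCTTTtcttttcgtgtttc
RpL24-like, chr3R:11431563-11431592, minus strand: gactgccgatacattttcatatttcttctt
RpS14a, chrX:7933732-7933761, plus strand: agctacgtcaaccttCTTTtttgatatccg
RpS14b, chrX:7935162-7935191, plus strand: ttttctCTTTtagttgctgatcgacgacca

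CTTT within 5 bases of the start was present in 39 of the 84 members that passed the filter on low levels given below (46.4%), and in 547 of 9291 expressed genes with a start in the annotation (5.89%). Of the 8 members below that filter, 1 had it. TATAAA, searched on the transcribed strand from 40 to 15 bases before the start, was found in 1 of the 84 members (1.19%) against 5.74% of all expressed genes. The other motifs were searched in the window from 250 bases before the start to 50 bases after it. TATCGATA, the palindrome bound by the DNA replication-related element factor, was found in 25 members (29.8%) against 1115 of the 9291 genes, a share of 12.001%. CACGTG, the palindrome known as an E-box, was found in 9 members (10.7%) against 4.59%, and GGTCACACT, on either strand, in 10 members (11.9%) against 8.34%. No motif contains another, and overlaps in position were not counted. A match gives only the presence of these letters in the window.

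The transcript table holds 1 value in FPKM for each transcript and group, pooled by the authors over the replicates, so that no spread between flies is available. Values were summed per gene and scaled so that each group summed to 1000000, and this scaled level is the unit used for all levels here. The filter kept genes with a mean scaled level of at least 1 over the 24 groups, which left 9437 genes and 84 members. In day 10 groups members held 11.9% to 20.5% of the FPKM sum, and in groups of days 30 and 50 they held 2.85% to 7.79%. Transcripts shorter than 300 bases, of which 1 is a member transcript (RpL39), took 28.2% to 41.9% of the sum at day 10 and 67.3% to 85.1% later. When these short transcripts were left out, members held between 17.8% and 21.2% of the remaining sum in brain, between 18.4% and 21.4% in thorax, between 21.4% and 26.5% in gut and between 30.3% and 33.6% in fat body. On this second scale the fat body range lay above those of all other tissues and the gut range above brain, while thorax overlapped with brain and, narrowly, with gut.

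**Figure D1:**
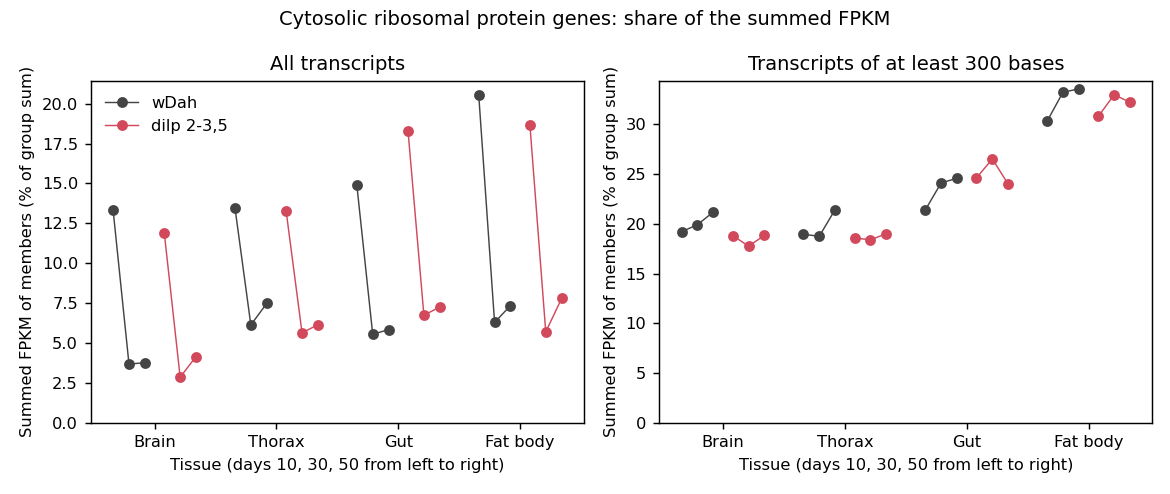
Share of the summed FPKM held by the 92 cytosolic ribosomal protein genes in each of the 24 groups (percent, y axis), by tissue, genotype and day, with all transcripts and without transcripts shorter than 300 bases. The 1 member transcript shorter than 300 bases, that of RpL39, counts only with all transcripts. Each point is 1 pooled value of the authors. Shares with all transcripts were 11.9% or more at day 10 and 7.79% or less later, while without short transcripts the fat body groups lay between 30.3% and 33.6%.

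The highest mean scaled levels were those of RpL41 (5883), RpL39 (4294), RpL29 (2871), RpS23 (2531) and RpLP2 (1971), which together held 19.4% of the members' sum, and the first 10 members held 29.7%. RpL41 and RpL39 encode 2 very small proteins of the large subunit, and RpS23 a protein of the decoding centre. RpL41 ranged from 2123 to 11056 over the 24 groups with a median of 5793, and RpS23 from 608 to 6762 with a median of 1665. In total 39 members had a mean level above 1000 and 12 a mean level under 100. Among the 100 genes with the highest mean level in transcripts of at least 300 bases, 55 were members. The small subunit held between 34.4% and 39.0% of the members' sum, the large subunit without the stalk between 56.8% and 59.4%, and the stalk, which recruits elongation factors, between 4.05% and 6.18%.

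At the other end, 8 members did not pass the filter: RpS10a, RpL7-like, RpS19b, RpL37b, RpS28a, RpS28-like, RpL22-like and RpL10Aa. Their mean levels were 0.128 or less, and the highest value of any of them in a group was 0.705, for RpL7-like. RpL10Aa was listed at 0 in 21 of 24 groups, RpS28a in 19, RpS28-like in 18 and RpL22-like in 17. RpS10a, RpS19b and RpL22-like are known from the fly germline. All of them have a paralog in the family with a high level: RpL10Ab, the partner of RpL10Aa, ranged from 225 to 4151, and RpS28b, the partner of RpS28a, from 570 to 2833.

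In 6 of the 13 pairs both genes passed the filter. Because the copies resemble each other, how the quantification split reads between them is uncertain, and shares within a pair are given as the authors' values allow. RpS14b gave 20.2% of the RpS14a and RpS14b sum in the median group, with a range of 18.7% to 23.2%, and RpL34a gave 16.9% of its pair with RpL34b, from 13.4% to 21.7%. RpS15Ab gave 1.49% of its pair with RpS15Aa (0.801% to 2.10%). The first 2 of these shares varied less over tissues, ages and genotypes than that of RpS15Ab, whose highest share was more than double the lowest. RpL24-like gave 10.8% of its pair with RpL24 and ranged from 5.47% to 29.4%, and RpLP0-like gave 1.04% of its pair with RpLP0 (0.560% to 2.43%). The yeast homologs of RpL24-like and RpLP0-like are assembly factors of the large subunit, not ribosomal proteins. Levels of RpL24-like were 226 to 474 at day 10 and 27.6 to 140 at the later days, without overlap. On this scale 91.2% of all genes fell from day 10 to day 30, where age and batch cannot be told apart.

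RpS5b (chr3R:14900432-14901563), the germline-enriched paralog of RpS5a, gave 2.42% of its pair in the median group and varied most, from 0.118% to 21.2%. In fat body its level was 425, 27.0 and 14.4 in wDah at days 10, 30 and 50, and 148, 18.4 and 45.9 in dilp 2-3,5. In gut it was 12.9, 0.395 and 3.34 in wDah and 47.2, 9.97 and 11.9 in dilp 2-3,5. In thorax the day 10 values were 40.9 in wDah and 37.9 in dilp 2-3,5, and later ones lay between 0.929 and 2.22. All brain values lay between 1.62 and 5.57. The lowest fat body value was thus above every value of brain, and in gut the dilp 2-3,5 value was above the wDah value at each age.

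**Figure D2:**
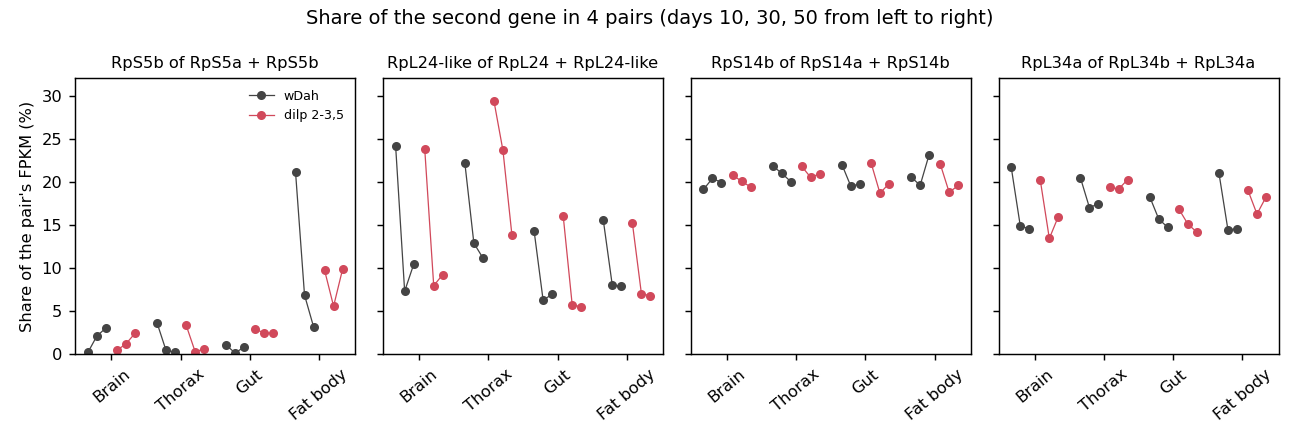
Share of the second gene in the summed FPKM of 4 pairs (percent, y axis) for each tissue, with days 10, 30 and 50 from left to right in wDah and dilp 2-3,5; each point is 1 pooled value. RpS5b reached 21.2% of its pair in wDah fat body at day 10, RpL24-like reached 29.4% in dilp 2-3,5 thorax at day 10, and RpS14b and RpL34a stayed between 13.4% and 23.2%.

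The levels of RpS5b moved with those of female germline and ovary genes. The level was summed over 8 germline and ovary markers (vas, osk, nos, bam, otu, Cp36, Vm26Ab and aub). This sum was 1278, 53.2 and 30.2 in wDah fat body at days 10, 30 and 50. In dilp 2-3,5 fat body it was 91.8, 8.07 and 99.6, and it reached at most 35.7 in the other tissues. Cp36 alone gave 1142, 35.0 and 18.7 of it in wDah fat body and 33.9, 0.672 and 64.5 in dilp 2-3,5. Spearman's rho of RpS5b with the sum of the 8 markers was 0.94 over the 24 groups, and 0.45 for RpS5a. The 24 values share tissues, genotypes and batches, and no test was made. In gut, osk was 3.67, 0.170 and 0.826 in wDah and 5.05, 2.03 and 4.68 in dilp 2-3,5 at the 3 ages. The germline and ovary sum there was 31.6, 0.754 and 2.16 in wDah and 16.1, 4.45 and 12.8 in dilp 2-3,5. Cp36 gave 21.2 and 2.60 of the day 10 sums in gut, wDah first. The part of germline and ovary RNA in the values of RpS5b was not tested.

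Which tissues carry more ribosomal protein mRNA was examined with limma on log2(scaled level + 1), each tissue against the mean of the other 3, with a block for each of the 6 combinations of genotype and age. All differences are log2 differences on this scale, and Benjamini-Hochberg adjustment ran over the 9437 genes with a threshold of 0.05. The p values measure whether a difference held over genotypes and ages, not the spread between flies. Members were lowest in brain and highest in fat body. In brain 79 of 84 members fell and 0 rose, while 32.5% of all genes tested fell and 37% rose. In fat body 67 members rose and 0 fell, against 15.4% and 53.5% of all genes. In gut 32 rose and 1 fell, against 21.8% and 42.5%, and in thorax 4 rose and 0 fell, against 38.3% and 10.1%. In bulk samples a smaller number of cells of a type and less RNA per cell cannot be told apart.

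The median difference of all genes was itself not at 0, with 0.07 in brain, 0.21 in thorax, −0.25 in gut and −0.39 in fat body. Relative to it, the members' median was −0.83 in brain, −0.12 in thorax, 0.50 in gut and 0.78 in fat body, which are folds of 0.564, 0.921, 1.41 and 1.72. These sizes depended on the genes and samples used: with a minimum level of 10 brain was at −0.37, with no filter gut was at 0.27, fat body at 0.47 and thorax at 0.064. Without brain in the fit, gut was at 0.18, fat body at 0.50 and thorax at −0.54, and without fat body gut was at 0.82 and thorax at 0.12. Brain had the lowest and fat body the highest of these medians in each of the 6 combinations. Brain lay between −1.08 and −0.66, fat body between 0.62 and 0.92, gut between 0.18 and 0.78 and thorax between −0.22 and −0.01. With median-of-ratios scaling 0 members rose and 83 fell in brain, where 37.9% and 44.7% of all genes did, 84 rose and 0 fell in fat body (34.3% and 42.5%) and 78 rose and 1 fell in gut (35.8% and 41.1%). In thorax the direction depended on the scaling, since 1 member rose and 81 fell with median-of-ratios scaling (25.7% and 48% of all genes).

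**Figure D3:**
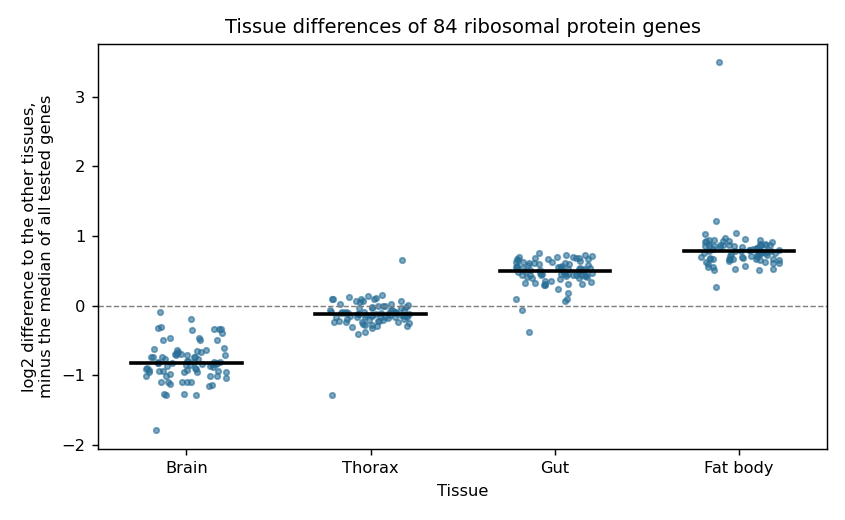
Log2 difference of the 84 tested members in each tissue against the mean of the other 3 tissues, relative to the median of the 9437 genes tested. Medians were −0.83 in brain, −0.12 in thorax, 0.50 in gut and 0.78 in fat body.

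Both subunits took part. In brain 32 of 34 tested small subunit members, 44 of 47 large subunit members and 3 of 3 stalk members fell, with medians relative to all genes of −0.78, −0.85 and −0.96. In fat body 25, 39 and 3 rose, with medians of 0.77, 0.78 and 0.94. The most strongly lowered in brain were RpS5b (−1.72 ± 0.52 (SE), adjusted p = 0.00608), RpS13 (−1.22 ± 0.14, adjusted p = 1.47e-07) and RpL27 (−1.21 ± 0.16, adjusted p = 8.17e-07). For RpS5b the mean of the other tissues includes fat body, where its level reached 425. At days 30 and 50 RpS5b was higher in brain (1.62 to 5.57) than in thorax (0.929 to 2.22) of the same age and genotype. RpS13 had levels between 136 and 479 in the 6 brain groups and between 321 and 1166 in the 6 fat body groups. The least lowered of those that passed were RpS15Ab (−0.28), RpL36 (−0.27) and RpL24 (−0.27), and the sign of these 3 turned without short transcripts, where the median of all genes was 0.39.

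In fat body the largest differences were those of RpS5b (3.11 ± 0.52, adjusted p = 3.19e-05), RpL11 (0.83 ± 0.14, adjusted p = 2.42e-05) and RpL13A (0.66 ± 0.12, adjusted p = 6.87e-05). RpL11 belongs to the particle that holds the small ribosomal RNA of the large subunit, and its level was between 542 and 2556 in the 6 fat body groups and between 143 and 1458 in brain. RpL36 (0.28), RpL14 (0.28) and RpLP0-like (0.25) were the smallest that passed. In gut RpL37A (0.50 ± 0.12, adjusted p = 0.00117), RpS13 (0.48) and RpL27 (0.48) stood highest and RpL13A (0.29) and RpL30 (0.28) were the smallest, while RpL24-like fell (−0.63 ± 0.19, adjusted p = 0.00583). RpL24-like rose in thorax (0.87 ± 0.19, adjusted p = 5.64e-04), and with median-of-ratios scaling it stayed higher there (0.34). RpL22 (0.36), RpL35 (0.32) and RpS20 (0.30), the other 3 called in thorax, were below 0 with that scaling.

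Tissue markers followed the labels in part. The summed level of 5 neuronal and glial markers was between 47.1 and 359 in brain and at most 45.2 elsewhere, that of 5 muscle markers between 470 and 2048 in thorax and at most 212 elsewhere, and that of 5 digestive enzymes between 8713 and 35585 in gut and at most 2665 elsewhere. The 5 fat body markers did not separate fat body (3195 to 8222) from thorax (4281 to 20282) or brain (1107 to 11865); Fbp1 was at most 2.87 in any group and Yp1 was listed at 0 in wDah fat body at day 10. The members' median in fat body relative to all genes was 0.62, 0.77 and 0.84 in wDah at days 10, 30 and 50. In dilp 2-3,5 it was 0.92, 0.74 and 0.79. The germline and ovary sum in these groups was 1278, 53.2 and 30.2 in wDah and 91.8, 8.07 and 99.6 in dilp 2-3,5. The part of other cell types in the tissue differences was not tested.

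Leaving out brain, which is part of the reference in both, reduced the members higher in fat body from 67 to 13 and in gut from 32 to 1. The cause of this drop was not tested. No share of all genes is given for fits with a tissue or age left out. Whether the member counts of these fits differ from those of all genes is therefore not known. Without day 50, 34 members were higher in fat body and 6 in gut, and without day 30, 3 were higher in gut. The gut count rose to 53 without thorax, 53 without day 10 and 59 without fat body. In thorax 51 members were higher without day 10, 13 without gut, 14 without fat body and 1 without day 30 or day 50, and 18 were lower without brain.

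Whether lowered insulin signaling changed ribosomal protein mRNAs was asked with the dilp 2-3,5 minus wDah difference in limma, blocked by the 12 combinations of tissue and age. No member was called: 0 rose and 0 fell over all tissues, where 1.48% of all genes rose and 1.09% fell, and 1 member had an unadjusted p under 0.05, as did 18.4% of all genes. The members' median was −0.07 relative to all genes, with 12 members above and 72 below the median gene, and the median standard error of a member was 0.08. The member with the smallest p was RpS15Ab (−0.30 ± 0.09, adjusted p = 0.0865), which lay below the median gene in 12 of 12 combinations. With median-of-ratios scaling RpS15Ab passed (−0.34, adjusted p = 0.0012) and was the only member that did, where 4.01% of all genes fell. RpS15Ab levels at day 10 were 27.8 and 20.6 in brain, 27.1 and 20.8 in thorax, 19.6 and 14.6 in gut and 30.5 and 18.3 in fat body, wDah first. Its reads may be shared with RpS15Aa.

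By tissue, 0 members rose and 0 fell in brain, against 0.477% and 0.498% of all genes, and 2 had an unadjusted p under 0.05, as did 16.7% of all genes. The members' median there was −0.26 relative to all genes, a fold of 0.837, and 83 of 84 members lay below the median gene. With no filter on low levels it was −0.16. At days 10, 30 and 50 this median was −0.20, −0.34 and −0.22. With median-of-ratios scaling 11 members fell in brain, where 4.06% of all genes did. The sum of fat body markers in brain was 0.728, 0.608 and 1.02 times as high in dilp 2-3,5 as in wDah at the 3 ages, that of brain markers 1.21, 1.15 and 1.92 times, and that of digestive enzymes 0.538, 0.639 and 0.646 times. Their part in the brain difference was not tested.

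In gut the members' median was 0.15 above that of all genes, a fold of 1.11, with 0.24, 0.20 and 0.02 at days 10, 30 and 50. A single member rose and 0 fell, against 2.92% and 0.593% of all genes, and 52 members had an unadjusted p under 0.05, as did 16.8% of all genes. The median gene was itself at 0.16 in this comparison, which is part of each member's difference. The called member was RpS5b (2.11 ± 0.47, adjusted p = 0.027), which lost its call without brain, thorax, day 30 or day 50 in the fit. With median-of-ratios scaling RpS5b rose (4.27% of genes) and 1 member fell (3.49% of genes). In the gut the digestive enzyme sum was between 1.22 and 1.39 times and the fat body marker sum between 1.95 and 3.29 times as high in dilp 2-3,5 as in wDah, and the part of both in these values was not tested.

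In thorax 0 members rose and 0 fell, against 0.583% and 1.49% of all genes, with 4 at an unadjusted p under 0.05 (9.76% of all genes) and a relative median of −0.17. The digestive enzyme sum in thorax was 0.285, 0.406 and 0.393 times as high in dilp 2-3,5 as in wDah at the 3 ages, the muscle marker sum 1.31, 1.06 and 1.90 times and the fat body marker sum 0.852, 0.813 and 0.791 times. In fat body 0 rose and 0 fell, against 0.668% and 0.89%, with 0 at an unadjusted p under 0.05 (9.58% of all genes) and a relative median of −0.01, with 0.19, −0.08 and −0.13 at the 3 ages. There the fat body marker sum was 2.57, 0.733 and 1.20 times as high in dilp 2-3,5 as in wDah. At day 10 this sum includes Yp1, listed at 0 in wDah and at 5928 in dilp 2-3,5. The other fat body markers at day 10 were lower in dilp 2-3,5 for Rfabg, Lsp2 and CG3523 and higher for Fbp1. The digestive enzyme sum was 0.0364, 0.191 and 0.247 times and the germline and ovary sum 0.0718, 0.152 and 3.30 times as high in dilp 2-3,5. The part of these markers in the thorax and fat body values was not tested. The interaction of genotype with tissue was called for 0 members, against 1.85% of all genes, with 20 at an unadjusted p under 0.05 (13.7% of all genes); for RpS5b its adjusted p was 0.192. Without fat body in the fit, 1 member was called.

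**Figure D4:**
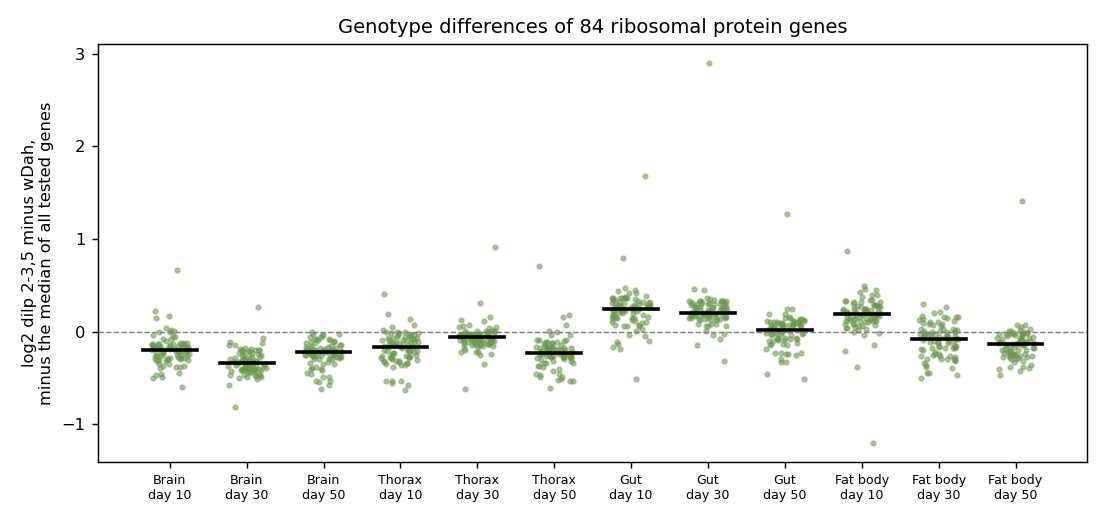
Log2 difference between dilp 2-3,5 and wDah of the 84 tested members for each tissue and day, relative to the median gene of the same comparison. Medians lay between −0.34 and −0.20 in brain, between −0.23 and −0.06 in thorax, between 0.02 and 0.24 in gut and between −0.13 and 0.19 in fat body.

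The authors' 95% limits of each transcript were summed per gene, lower and upper limits apart, which gives the lowest and highest possible values. These summed limits are wider than those of a single value. Their median width for each tissue and age was 62.4% to 97.3% of the members' level. Over the 12 comparisons of the genotypes, the limits were apart in 1.02% of gene values with dilp 2-3,5 higher and in 1.29% with it lower. Among members this held only for RpS5b, which was higher in gut at all 3 ages and in fat body at day 50, and lower in brain at day 30 and in fat body at day 10. When only the transcript with the highest mean level of each gene was used, 4 member values were apart upwards and 7 downwards, against 1.41% and 1.44% of gene values. Of the 7, 5 were in thorax at day 50, where 2.83% of genes were apart downwards.

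With age, the deposited scale and the scaled levels gave different pictures. From day 30 to day 50, 72 members rose and 0 fell, but 65% of all genes rose too and 0.498% fell, and the members' median (0.25) was close to that of all genes (0.27). With median-of-ratios scaling 0 members rose and 7 fell, against 1.04% and 3.54% of all genes, and the members' median was −0.17 relative to all genes. The smallest p values were those of RpL23A (0.47), RpL4 (0.40), RpL34b (0.32), RpL34a (0.36), RpS24 (0.38), RpL36 (0.28), RpL7A (0.37) and RpL40 (0.34), the last of which encodes a fusion with ubiquitin. Of these 8, RpL23A kept its sign with median-of-ratios scaling and the other 7 were below 0. Without thorax 40 members and without fat body 32 members were higher, so that neither the count nor the direction was settled.

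Within the family the step from day 30 to day 50 was small. The differences of members from the median member, averaged over the 8 combinations of tissue and genotype, ran from −0.17 to 0.29, and 1 of 84 members lay on the same side in all 8.

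From day 10 to day 30 all 84 members fell and 0 rose, against 91.2% and 2.27% of all genes, with a median of −1.77 beside −1.47 for all genes. With median-of-ratios scaling 43 rose and 17 fell, against 31.4% and 30.6%. Since the relative median also moved from 0.08 to −0.85 as the pseudocount went from 0.1 to 5, the place of the family among all genes was not settled, and members are described relative to each other. This step also separates the batches, so that age and batch cannot be told apart.

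Members did not move together between days 10 and 30. Relative to the median member, 28 were above it in all 8 combinations of tissue and genotype, 30 below it in all 8 and 26 on both sides. The lowest were RpL34a (−1.86, range −2.03 to −1.60), RpL7A (−1.73, −1.98 to −1.53), RpL34b (−1.54, −1.90 to −1.25) and RpL31 (−1.49, −1.79 to −1.22). RpL34a levels were between 180 and 328 in the 8 groups of day 10 and between 7.56 and 23.8 in those of day 30, without overlap. These levels are on the scale where 91.2% of all genes fell. RpS19a (−1.06) and RpL24-like (−1.18) were also more than 1 below the median member, and RpL36, RpL23 and RpLP0-like, named for their small p, were at −0.68, −0.78 and −0.61 relative to the median member in limma.

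The highest, chosen after their values were seen, were RpS29 (range 0.82 to 1.50), RpL38 (1.29, 0.82 to 1.54), RpL37a (1.29, 1.11 to 1.67), RpL39 (1.13, 0.92 to 1.54) and RpL41 (1.01, 0.49 to 1.38). RpS29, a zinc-binding protein of the small subunit, ranged from 1888 to 2861 in the groups of day 10 and from 1025 to 1860 in those of day 30. RpL37a is not RpL37A, a different gene of the large subunit that lay 0.80 above the median member.

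These 5 members have short transcripts, and that of RpL39 is below 300 bases, outside the length classes given below. Spearman's rho between the step and transcript length was −0.48 over the 84 members, and 0.47 with mean level; both are descriptions over genes, which share the same libraries. By length, relative to all genes, the 7 members of 300 to 500 bases had a median of 0.37, the 42 members of 500 to 700 bases −0.18 and the 20 members of 700 to 900 bases −0.53. The 11 members of 900 to 1200 bases had −0.53 and the 3 of 1200 to 2000 bases −0.54, so that the members' medians levelled off above 700 bases. Other genes of these 5 classes had medians of 0.40, 0.11, −0.02, −0.09 and −0.14, and the 4046 of 2000 bases or more had 0.02, above the classes from 700 to 2000 bases. Medians thus fell with length up to 2000 bases among the other genes too, but not beyond, and the part of length in the differences between members was not tested. From day 30 to day 50 the corresponding rho was 0.31.

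**Figure D5:**
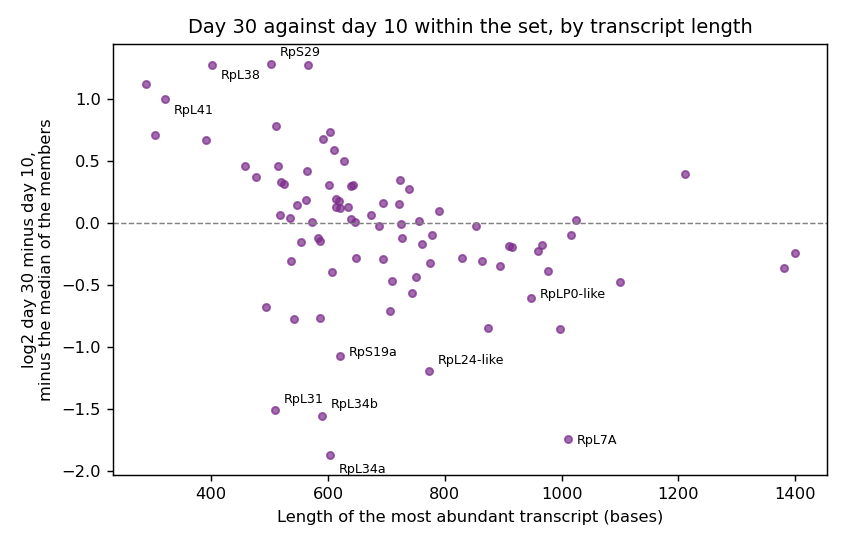
Log2 difference of each tested member between days 30 and 10, relative to the median member (y axis), against transcript length in bases (x axis). Points are means over the 8 combinations of tissue and genotype. Spearman's rho was −0.48.

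Other genes of translation showed the tissue order of the ribosomal proteins in part. Of all genes tested, 32.5% fell and 37% rose in brain, and 15.4% rose and 53.5% fell in fat body. sta and Rack1, which encode small subunit components outside the naming rule, both fell in brain (−0.60 and −1.23) and rose in fat body (0.51 and 0.58). Of 7 elongation genes, 6 fell and 1 rose in brain, and 6 rose and 1 fell in fat body. Ef1alpha48D, the general form of the factor that brings aminoacyl-tRNA to the ribosome, differed by −1.78 ± 0.14 in brain and 1.04 ± 0.14 in fat body. Its paralog Ef1alpha100E took the opposite course, with 2.77 ± 0.32 and −3.25 ± 0.32.

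Of 17 ribosome biogenesis genes, 16 were tested, of which 11 fell and 1 rose in brain and 8 rose and 1 fell in fat body. The nucleolar proteins nop5 (−1.27) and Fib (−0.90), the pseudouridine synthase Nop60B (−1.10) and the GTPase Non1 (−1.15) were among those that fell in brain, and all 4 rose in fat body (0.79, 0.64, 0.84 and 0.99). dm, the fly Myc, fell in brain (−0.84). Tif-IA, an initiation factor of RNA polymerase I, was the exception in both, at 0.50 and −0.34, and its fat body value turned to 0.07 with median-of-ratios scaling.

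Of 9 genes of translation initiation and its control, 6 fell and 0 rose in brain, with Thor, the inhibitor that binds eIF-4E and a target of FOXO, at −2.38 ± 0.16 and S6k at −0.95 ± 0.14. In fat body 1 rose (eIF-4a, 0.34) and 3 fell (eIF4G, eIF-4B and Tor, between −0.51 and −0.44). Of the mitochondrial ribosomal proteins, a separate family of 73 genes, 48 rose and 1 fell in thorax, against 38.3% and 10.1% of all genes. In brain 20 rose and 9 fell, against 37% and 32.5%. In gut 4 rose and 12 fell (21.8% and 42.5% of all genes), and in fat body 0 rose and 53 fell (15.4% and 53.5%). Between the genotypes, 0 genes of any of these lists were called over all tissues.

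Circular RNAs, which are joined head to tail by backsplicing, were counted in each library, with the linear reads at the same ends. Among the 1194 circRNAs in the table, those of the members RpS27A, RpS3 and RpL6 are described here, and their junctions are shown because none joins whole exons. The first 15 bases end at the 3′ end of the circle and the capitals are the 15 bases that follow across the junction, on the strand of the gene.
RpS27A, chr2L:10409974-10410051: ctgaaatactacaagAAGAAGAACTACTCC
RpS3, chr3R:23359310-23359393: ttgtacgccgagaagGGCCGTCGCATTCGG
RpL6, chr3R:31595434-31595520: ccgaccaagacgttcGTGAAGAAGATCGGA

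The 3 circles were 78, 84 and 87 bases long, each inside 1 exon. Of their ends, only the 3′ end of RpS27A was at an annotated exon edge, with a tolerance of 1 base. In the whole table, 90.0% of circRNAs had both ends at exon edges, but this held for 1 of the 20 circRNAs of up to 87 bases.

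Circular reads of these 3 genes were few, with at most 11 in any library. Their sums over the 24 libraries of each age, in the order of days 10, 30 and 50, were 27, 73 and 47 for RpL6, 23, 60 and 74 for RpS27A, and 48, 30 and 48 for RpS3. The median of the linear reads was highest at day 10 for each of the 3. For RpS3 the median library held 4760 linear reads at day 10 (3201 to 6306), against 1338 (560 to 3680) and 1314 (701 to 2623) at the later ages. RpL6 gave 2243 to 5619 linear reads in the libraries of day 10, then 487 to 3640 and 811 to 2598. RpS27A gave 3772 to 6923, then 1366 to 6757 and 1744 to 4951. The ranges of day 10 and day 30 overlapped for all 3 genes. The difference between day 10 and the later days is also one between batches, and read depth per library is not given by these tables. Linear reads summed over all circRNAs were between 60382 and 245298 per library.

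Linear reads were also taken per 10000 linear reads of the library. For RpS3 the wDah fat body means at the 3 ages were 324 ± 21.8, 144 ± 30.9 and 139 ± 21.1 (SD, n = 3 each), and those of dilp 2-3,5 were 321 ± 42.5, 105 ± 1.28 and 105 ± 14.7. Over the 12 combinations of tissue and age, all dilp 2-3,5 libraries lay below all wDah libraries in 3 for RpS3, 3 for RpS27A and 1 for RpL6, and above them in 1, 0 and 1. Over all circRNAs and combinations, 4.48% of linear values lay below without overlap and 13.6% above. In the remaining combinations of the 3 members the genotypes overlapped.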

How the data were processed

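Total RNA of 72 libraries in 24 groups was used. Members, gene lists and tests were chosen with earlier results of these data known. The FPKM values were made by the authors with HISAT2 2.0.4, StringTie 1.3.0, Cufflinks and Cuffdiff 2.2.1 on BDGP6, and the deposited table holds 1 pooled value with 95% limits per transcript, genotype, tissue and age, so that depth and replicate spread of these values are unknown. The circular and linear read counts were deposited by the authors per library, not normalized, after mapping with STAR 2.5.2b. FPKM were summed per gene, scaled to 1000000 per group and tested with limma 3.58.1 (R 4.3.3) on log2(level + 1) for genes with a mean level of at least 1, using Benjamini-Hochberg adjustment. Transcripts with a failed quantification status were set to missing, which touched 8 genes and 0 member values. The genotype fit over all tissues was tested on simulated data.

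Genes named one by one were both genes of each pair, the 5 members with the highest and lowest mean level, up to 8 members with the smallest p per direction in the genotype and age fits, the 3 largest and 3 smallest differences that passed in each tissue, up to 5 members of the interaction, up to 5 past the 95% limits at the most comparisons, and listed genes that passed. Alternatives were other scalings, pseudocounts and filters, a trend in limma, the listed values of failed transcripts, and leaving out each tissue or age. All 92 member symbols matched the annotation, where RpL37b is RpL37-2. Of the listed genes, apolpp and FASN1 stand under the names Rfabg and CG3523, oho23B is the member RpS21, and nop was not matched. Promoter bases came from the Release 6 genome and the annotation BDGP6. The authors' beta-binomial p-value tables and the polysome libraries were not used here. Some results are not reported here.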

Additional observations from a re-analysis of the deposited data

Results flagged for a closer look

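The members' median genotype difference (dilp 2-3,5 minus wDah, log2, relative to the median gene) pointed one way in gut and the other way in brain and thorax at every age. In gut it was 0.24, 0.20 and 0.018 at days 10, 30 and 50, above the median gene each time. At day 50 the gut members were close to evenly split, with 47 above and 37 below the median gene. In brain it was −0.20, −0.34 and −0.22, and in thorax −0.16, −0.059 and −0.23, in the same order of days. The difference between the tissues was not tested for the median. For single members the interaction of genotype with tissue was called for 0 of 84. With 1 pooled value per group, the spread between flies behind these medians is not known.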

How the results depend on the processing

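No paired analysis was possible because the FPKM columns are pooled over replicates. The cause of the changes below was not tested unless stated. Where no share of all genes stands beside a count of members, whether all genes shifted likewise is not known.

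In the genotype comparison over all tissues 1 member was lower with the deposited FPKM, median-of-ratios scaling or without transcripts under 300 bases (leave-one-out 0 to 1, with 1 without day 50). In brain 8, 11 and 2 members were lower in these 3 settings, and the relative median was −0.16 with no filter. Of all genes, 4.01% were lower over all tissues with median-of-ratios scaling and 3.41% without short transcripts, and 4.06% and 2.84% in brain. In thorax and in gut 1 member was lower with the deposited FPKM and with median-of-ratios scaling (2.69% and 3.49% of all genes with the latter). The gut call of RpS5b was lost with no filter, leaving 0 (leave-one-out 0 to 1), and the interaction gave 0 to 1 members by leave-one-out, with 1 without fat body. With 1 transcript per gene, 7 member values were lower past the 95% limits, as were 1.44% of gene values.

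For day 50 against day 30 the relative median was −0.17 with the deposited FPKM and with median-of-ratios scaling, −0.13 without short transcripts, −0.14 and 0.11 with pseudocounts of 0.1 and 5, and 0.11 with no filter. Members higher and lower were 0 and 4 with the deposited FPKM and 0 and 7 with median-of-ratios scaling (1.04% and 3.54% of all genes). Without short transcripts 7 members were higher, as were 39.4% of all genes. Leave-one-out gave 32 to 62 higher, with 40 without thorax and 32 without fat body. With the deposited FPKM and median-of-ratios scaling, in that order, the sign turned for RpL4 (−0.034, −0.042), RpL34b (−0.11, −0.12), RpL34a (−0.065, −0.072), RpS24 (−0.059, −0.067), RpL36 (−0.16, −0.17), RpL7A (−0.068, −0.076) and RpL40 (−0.096, −0.10).

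For day 30 against day 10 the relative median was 0.21 with the deposited FPKM and with median-of-ratios scaling, 0.15 without short transcripts, 0.083 and −0.85 with pseudocounts of 0.1 and 5, −0.97 with no filter and −0.055 with a minimum level of 10. Members higher and lower were 42 and 16, 43 and 17, and 20 and 36 in the first 3 of these settings.

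In brain 1 member was higher without short transcripts, as were 55.6% of all genes, and 2 with no filter. The relative median was −0.37 with a minimum level of 10 (leave-one-out −1.07 to −0.71). RpS15Ab, RpL36 and RpL24 turned to 0.019, 0.070 and 0.071 without short transcripts. In thorax the relative median was −0.28 with the deposited FPKM, −0.29 with median-of-ratios scaling, −0.27 without short transcripts, −0.28 and 0.018 with pseudocounts of 0.1 and 5, 0.064 with no filter and −0.28 with a minimum level of 10 (leave-one-out −0.54, without brain, to 0.12, without fat body). Members higher and lower in thorax were 1 and 80, 1 and 81, and 1 and 72 in the first 3 of these. Of all genes, 25.7% were higher and 48% lower with median-of-ratios scaling, and 28.7% and 34.4% without short transcripts. In thorax 2 members were higher without ribosomal protein genes in the sum, 7 with a pseudocount of 5 and 8 with a minimum level of 10. With no filter 1 was lower. Leave-one-out gave 1 to 51 higher and 0 to 18 lower, with 51 without day 10 and 18 without brain. RpS20 turned to −0.22, −0.23 and −0.14, RpL35 to −0.20, −0.21 and −0.12, and RpL22 to −0.15, −0.17 and −0.074 with the deposited FPKM, with median-of-ratios scaling and without short transcripts.

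In gut 78 members were higher with the deposited FPKM and with median-of-ratios scaling (35.8% of all genes with the latter). Without short transcripts 6 were lower, as were 58.2% of all genes. With no filter 2 were lower and the relative median was 0.27. Leave-one-out gave medians of 0.18 to 0.82, 1 to 59 higher and 0 to 4 lower, with the lowest median and count of higher members without brain, and RpL13A lay between −0.024, without brain, and 0.58. In fat body the relative median was 0.92 with the deposited FPKM, median-of-ratios scaling and without short transcripts, 0.89 and 0.61 with pseudocounts of 0.1 and 5, and 0.47 with no filter. Leave-one-out gave 0.50 to 0.97 and 13 to 75 higher, the lowest of both without brain. Tif-IA turned to 0.086 with the deposited FPKM and to 0.075 with median-of-ratios scaling. Without short transcripts members held a larger median share of the sum, by construction: 19.0% in brain, 18.9% in thorax, 24.4% in gut and 32.6% in fat body.

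Of the values of single named genes, 813 kept their direction and side of the threshold under the alternatives other than leave-one-out while 28 lost their call and 28 changed sign. With a tissue or age left out, 417 kept both, 78 lost their call and 1 changed sign. The limits are the pooled values, the few blocks per test and the short transcripts, whose share of the sum differs between day 10 and later days.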
